A study of Mus musculus with 9 samples.

Results

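The mitochondrially encoded transcripts were taken as every row of the count table whose gene name starts with mt- and whose position is on chromosome MT. There were 13 such rows of 26858, and they were the 13 protein genes of mouse mitochondrial DNA (mtDNA). The annotation holds 37 genes on MT, and the 2 rRNA and 22 tRNA genes were not analysed here. All 13 genes passed the filter on low counts and were among 14990 genes tested. SIX2 nephron progenitor cells were sorted by eGFP from mouse kidneys at E18.5, and RNA-seq libraries came from 4 control (heterozygous Six2-Qpc+/-) and 5 mutant (Six2-Qpc-/-) samples. Qpc, now named Uqcrq, encodes subunit VII of mitochondrial (mt) complex III. Both genotypes carried the Six2-driven eGFP/Cre fusion, so the control cells also expressed Cre and had lost 1 of 2 Uqcrq alleles. The libraries were made from small amounts of RNA by amplification, with poly(A) selection and without strand information.

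Mammalian mtDNA is transcribed from both strands into long precursors, from which tRNAs that lie between most genes are cut out to release the mRNAs, rRNAs and tRNAs. Most of the mRNAs then receive short poly(A) tails, and the level of each depends on its own stability as well as on transcription. The proteins are core subunits of complexes I, III and IV and of ATP synthase, which are completed by subunits made from nuclear genes. Pieces of mtDNA have also been copied into nuclear chromosomes during evolution, and such copies can be nearly identical to the genes they came from.

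In the mutant cells 3 of the 13 genes (23.1%) passed the test as higher, mt-Nd1, mt-Co1 and mt-Nd4, and 0 as lower. Their mean levels were 1.36 to 1.55 times those of control cells. Of all genes tested 14.8% passed and 7.82% were higher. At an unadjusted p under 0.05 (edgeR) there were 4 of the 13 genes, and 31.4% of all genes. Whether the 13 genes differ as a group from other genes was not tested. The count of 3 fell to 0 without control replicate 73. It fell to 1 without control replicate 72 or mutant replicate 77 or 78. The calls over all genes also fell, from 2225 to 1046, 1272, 1564 and 1336 in these fits, in the same order. mt-Cytb, the complex III subunit, did not pass the test, with a log2 fold change of 0.16 ± 0.15 (SE). The make-up of the mt reads also differed between genotypes. mt-Co1 and mt-Cytb took nearly equal parts in control cells. In the mutant libraries mt-Co1 had 1.31 to 1.47 reads for each mt-Cytb read, a ratio that was not fixed in advance. A block of 6 neighbouring genes from mt-Co2 to mt-Nd4l had far fewer reads per length than the others, and 5 of these genes have copies on chromosome 1 that are the same over nearly their whole length.

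Because this identity limits what can be measured, the sequences are given first. BLAST of the annotated mt transcripts against all annotated transcripts (GENCODE M21, build GRCm38), at 95% identity or more over at least 200 bases, found 11 nuclear copies, of which 10 had a row in the count table. A run of 7 copies lies on the minus strand of chromosome 1, from Gm28439 at chr1:24611535-24612410 to Gm29216 at chr1:24615706-24616197. They match, in order, the first 876 bases of mt-Nd4, nearly all of mt-Nd4l, mt-Nd3, mt-Co3, mt-Atp6 and mt-Co2, and the end of mt-Co1. A further 3 copies lie on chromosome 2, namely Gm13341 (mt-Co2, 95.91% identity), Gm13340 (mt-Co1, 97.61%) and Gm13339 (part of mt-Nd2, 96.67%). The first 60 bases of mt-Co3 (MT:8607-8666) and of its copy Gm28437 are shown because no letter separates them, here or in the rest of the 783 aligned bases, so that no read inside them can be placed by its sequence.
mt-Co3: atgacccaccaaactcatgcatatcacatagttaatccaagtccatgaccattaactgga
Gm28437: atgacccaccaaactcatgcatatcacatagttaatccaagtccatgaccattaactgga

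The start of mt-Nd3 (MT:9459-9491) and of its copy Gm28438 are shown because they hold the only difference between the 2 sequences over 345 aligned bases, T3C, counted from the first base of the gene and with the letter of the mt gene first. The capital marks that base.
mt-Nd3: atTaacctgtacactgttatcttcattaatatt
Gm28438: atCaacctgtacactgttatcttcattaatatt

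For mt-Co1 the place where the chromosome 1 copy begins is shown (MT:6390-6423), together with the same bases in the more diverged copy on chromosome 2. Capitals mark A1066T in the lines of mt-Co1 and Gm29216, and the differing base of T1072C in the line of Gm13340, whose counterpart in mt-Co1 is left in lower case.
mt-Co1: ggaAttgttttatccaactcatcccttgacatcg
Gm29216: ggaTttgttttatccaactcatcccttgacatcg
Gm13340: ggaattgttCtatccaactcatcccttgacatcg

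The chromosome 2 copy of mt-Co1 can be told apart more often, with 37 mismatches over 1545 bases. The 60 bases with most differences (MT:5787-5846) are shown with the differing letters in capitals, which are A462G, A468G, T501C and C519T.
mt-Co1, window with most differences: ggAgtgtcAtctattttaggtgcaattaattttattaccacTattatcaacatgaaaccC
Gm13340, window with most differences: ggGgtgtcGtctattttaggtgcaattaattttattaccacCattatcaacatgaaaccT

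In mt-Nd4 the match to Gm28439 stops inside the gene. The 60 bases around that point (MT:11013-11072) are shown with the last 30 copied bases in capitals, and the bases after them, to the end of the gene, have no copy in the run on chromosome 1.
mt-Nd4: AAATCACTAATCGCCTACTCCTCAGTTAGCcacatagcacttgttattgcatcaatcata

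Genes also overlap each other on mtDNA. mt-Atp8 and mt-Atp6, which encode subunits of ATP synthase and share 1 mRNA, overlap by 43 bases (MT:7927-7969), printed in capitals with 10 bases on each side.
mt-Atp8 and mt-Atp6: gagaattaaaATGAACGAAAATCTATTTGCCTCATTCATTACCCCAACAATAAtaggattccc

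mt-Nd4l and mt-Nd4 overlap by 7 bases on the same strand, and mt-Nd5 and mt-Nd6 by 14 bases on opposite strands. Since the libraries were not stranded, reads from mt-Nd6 and from RNA of the opposite strand could not be told apart, in that overlap or in the rest of the gene.

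The share of each gene that cannot be separated from a nuclear transcript was counted in windows of 100 bases. An unchanged nuclear match was found for 99.9% of the windows of mt-Co3, 99.5% of those of mt-Co2 and of mt-Atp6, 98.5% of mt-Nd4l and 97.6% of mt-Nd3. It was found for 60.8% of the windows of mt-Nd4, 30.8% of mt-Co1 and 3.19% of mt-Nd2. No window of mt-Nd1, mt-Nd5, mt-Nd6, mt-Cytb or mt-Atp8 had such a match. mt-Atp8 lies inside the copied run, but its place on chromosome 1 carries no annotated transcript apart from the bases it shares with mt-Atp6.

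Per library, 21040536 to 23986458 reads were counted, of which 262149 to 426279 fell on the 13 genes. Levels are given as CPM, counts per 1000000 counts of the TMM-normalized library size, and per kb of gene length where genes are compared with each other. The targeted gene Uqcrq was lower in mutant cells (94.1 ± 13.3 vs. 21.3 ± 4.45 CPM; SD, n = 4 and 5). The 9 nephron progenitor markers summed to 2123 to 2617 CPM in control and 2133 to 2585 CPM in mutant libraries, and none passed the test. Six2 itself ranged from 506 to 623 and from 529 to 795 CPM.

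In control cells mt-Cytb had the highest level per length, 3681 ± 628 CPM per kb, followed by mt-Co1 with 2768 ± 428 and mt-Nd1 with 1536 ± 206. Next came mt-Nd4 (622 ± 87.5), mt-Nd2 (510.1 ± 70.3), mt-Nd5 (481 ± 63.7) and mt-Nd6 (194 ± 36.0). The libraries were poly(A)-selected and not every mt mRNA is tailed, so levels of different genes also depend on tails, which were not measured. The means of the neighbours mt-Nd2 and mt-Nd5 were less than 1 SD apart, and only mt-Nd6 among these 7 genes is encoded on the other strand. The 6 genes of the copied run all lay lower, with mt-Co3 at 152 ± 30.5 CPM per kb, mt-Co2 at 59.9 ± 11.3 and mt-Atp6 at 56.5 ± 11.3. mt-Atp8 (5.85 ± 1.26), mt-Nd3 (5.60 ± 1.22) and mt-Nd4l (1.55 ± 0.58) were lowest, and neither mt-Co2 and mt-Atp6 nor mt-Atp8 and mt-Nd3 differed beyond 1 SD. Since mt-Atp8 and mt-Atp6 share 1 mRNA, their unlike values cannot be read as levels of separate transcripts. mt-Nd4l and mt-Nd4 overlap on the same strand too. Whether their values, 1.55 and 622 CPM per kb, stand for separate transcripts was not tested. mt-Co1, mt-Co2 and mt-Co3 encode the 3 core subunits of complex IV, and in control cells the mt-Co1 level per kb was 46.2 times that of mt-Co2 and 18.2 times that of mt-Co3. How the authors' counting treated reads that match 2 places is not given in the sources used here, and its part in these levels was not tested. mt-Atp8, none of whose windows of 100 bases matched an annotated nuclear transcript exactly, also lay at the low level of this block. The search covered annotated transcripts only. In the run on chromosome 1 the place of mt-Atp8 falls between Gm10925, which ends at 24614651, and Gm28661, which starts at 24614885. The bases between these copies were not searched, so whether they match mt-Atp8 was not tested.

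**Figure D1:**
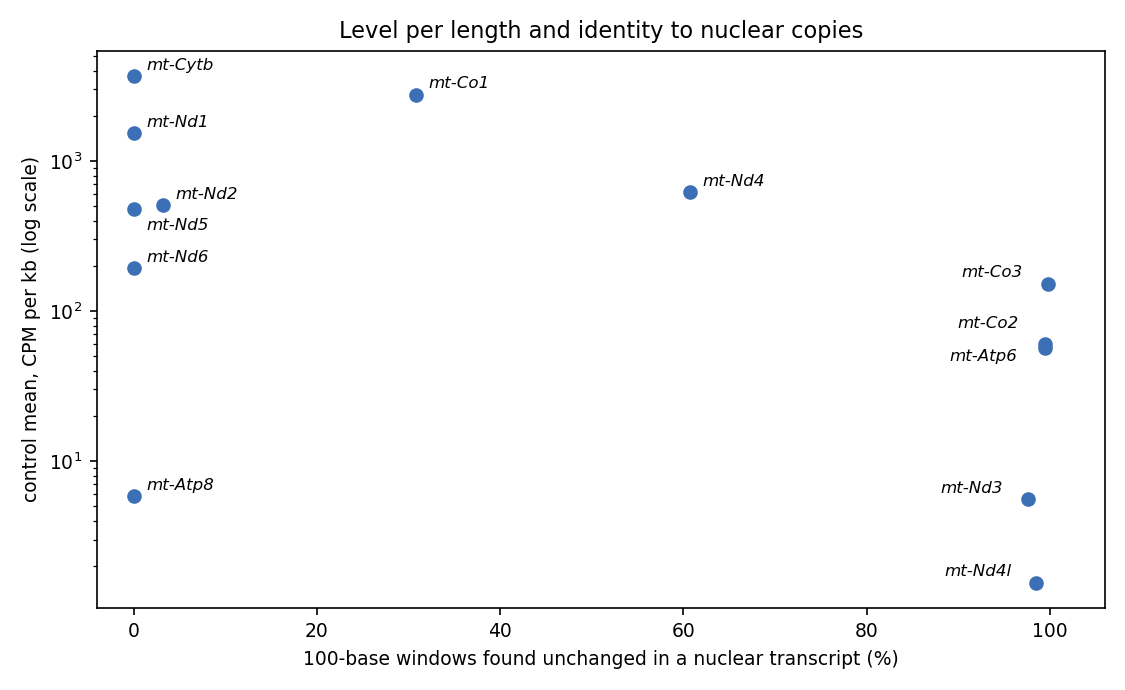
Mean level per length in the 4 control libraries (CPM per kb, log axis) against the percentage of 100-base windows of the gene found unchanged in an annotated nuclear transcript, 1 point per mt gene. The 5 genes at 97.6% or more lie at or below 152 CPM per kb. Those with fewer such windows lie at or above 194 CPM per kb, except mt-Atp8, which is low without a match to an annotated transcript.

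In the mutant cells the order per length was the same but for 2 exchanges of place. mt-Co1 stood at 4292 ± 702 CPM per kb, next to mt-Cytb at 4113 ± 634, and these means were less than 1 SD apart. mt-Nd3 (8.26 ± 2.38) stood above mt-Atp8 (6.88 ± 1.30), again within 1 SD.

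Reads were counted on each of the 7 copies on chromosome 1, in numbers that differed by copy. Over the 9 libraries Gm28437 had 26851 reads and mt-Co3 24901, and the ratio stayed between 1.04 and 1.12 in each library. Gm28661 had 1.21 to 1.34 reads for each read on mt-Co2, and Gm10925 had 1.62 to 2.11 for each read on mt-Atp6. The copies of the small complex I genes had more reads than the genes, with 4093 on Gm28438 vs. 498 on mt-Nd3 and 291 on Gm10222 vs. 92 on mt-Nd4l. Where the mt gene runs on beyond the copy the picture was different: Gm29216 had 11010 reads vs. 1123447 on mt-Co1, and Gm28439 had 1619 vs. 208466 on mt-Nd4. Reads on a gene of the block and on its copy cannot be told apart by sequence, so the values of mt-Co2, mt-Atp6, mt-Co3, mt-Nd3 and mt-Nd4l are uncertain. The same limit holds for the copied parts of mt-Nd4 and mt-Co1, where 60.8% and 30.8% of all windows had an unchanged nuclear match. Whether it also holds for mt-Atp8, which lies inside the run, was not tested.

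**Figure D2:**
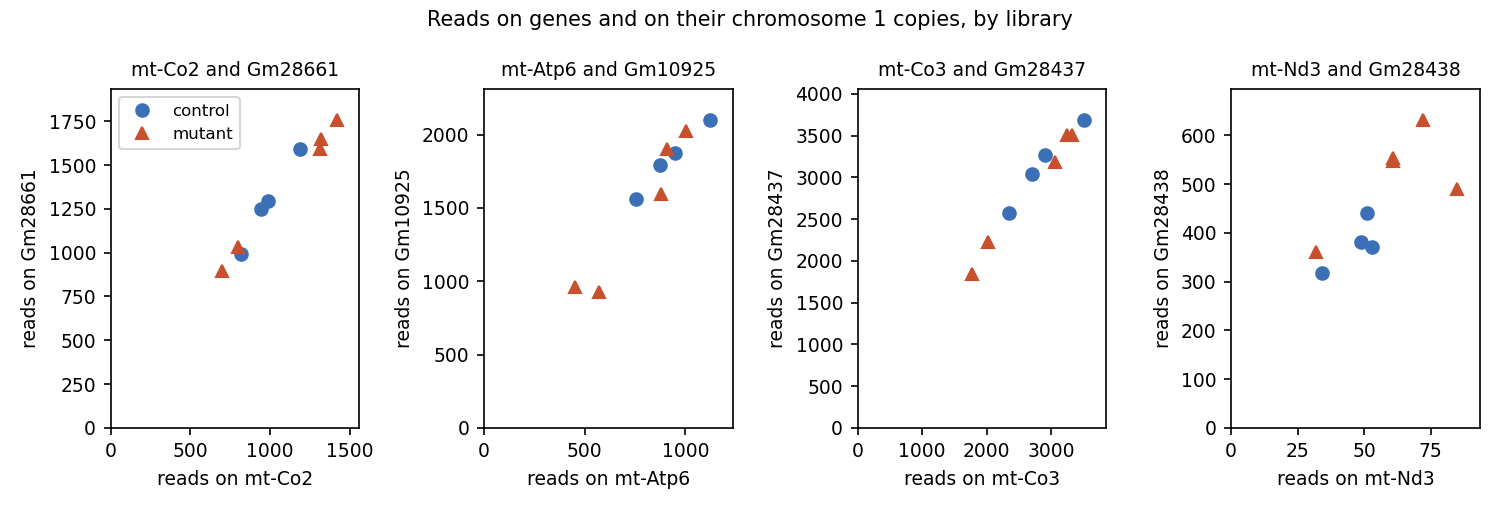
Read counts on 4 mt genes (x axis) and on the chromosome 1 copy of each (y axis), 1 point per library, with control libraries as circles and mutant libraries as triangles. Reads on Gm28437 and Gm28661 stay in nearly fixed proportion to those on mt-Co3 and mt-Co2 (1.04 to 1.12 and 1.21 to 1.34), whereas Gm28438 has 5.75 to 11.2 reads for each read on mt-Nd3.

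Mutant cells were then compared with control cells by the edgeR quasi-likelihood test with Benjamini-Hochberg adjustment over all genes tested. Of the 13 mt genes 3 were higher and 0 lower at an adjusted p under 0.05, which is 23.1%, and 4 had an unadjusted p under 0.05. Among all genes tested 14.8% passed in either direction, 7.82% were higher and 7.02% lower in the mutant, and 31.4% had an unadjusted p under 0.05. The fitted change was above 0 for 11 of the 13 genes, compared with 49.2% of all genes tested. Their median log2 fold change was 0.29, with a range from -0.12 to 0.63, and that of all genes was -0.01. Since the transcripts of the 13 genes are cut from shared precursors and counted in the same libraries, the genes are not independent observations of the genotype.

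**Figure D3:**
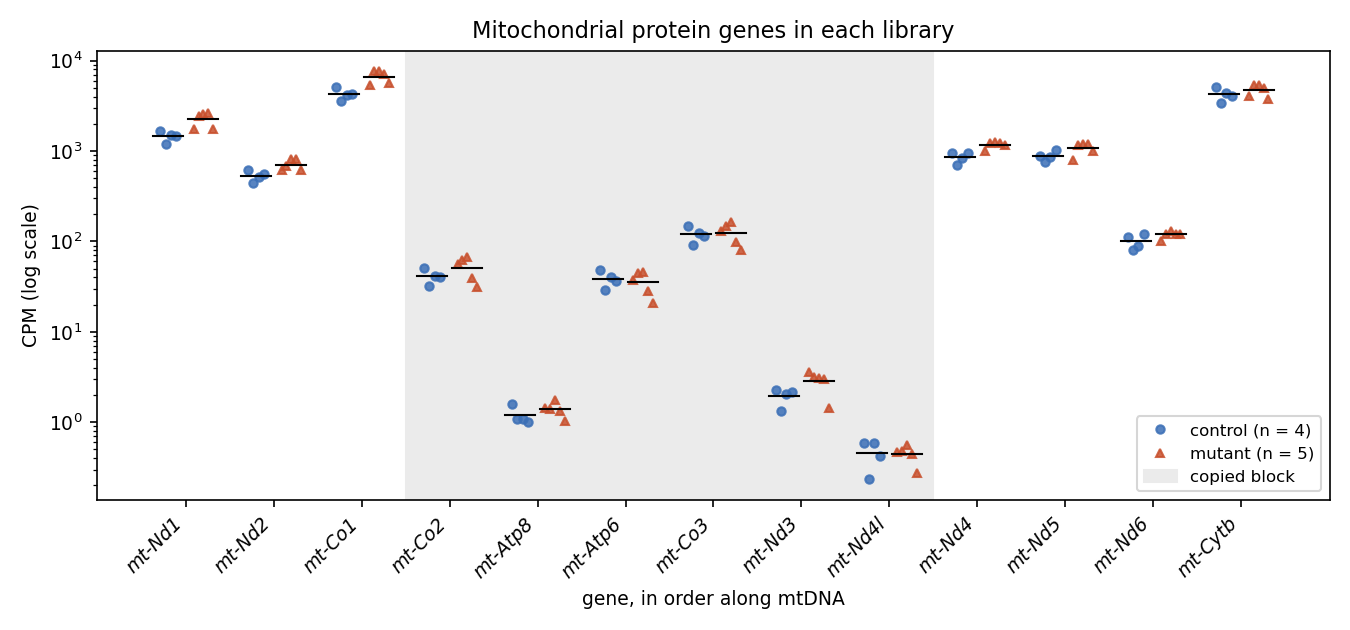
CPM (log axis) of the 13 mt protein genes in order along mtDNA, 1 point per library, with control libraries as circles, mutant libraries as triangles, a line at each mean, and the 6 genes of the copied block on a grey ground. Mutant libraries lie above all control libraries for mt-Nd1, mt-Co1 and mt-Nd4, and the block spans 0.234 to 165 CPM.

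mt-Co1, the catalytic core of complex IV, had 5135, 3532, 4146 and 4294 CPM in the control libraries and 5372, 7626, 7571, 7005 and 5578 CPM in the mutant libraries. All mutant values were above all control values, with control replicate 71 and mutant replicate 74 closest to each other. Mean levels were 4277 ± 661 CPM in control and 6630.4 ± 1085 CPM in mutant cells (SD), and the fitted log2 difference was 0.63 ± 0.15 (SE; edgeR, adjusted p = 0.0160). Gm29216, the copy of its end, had 49.2 ± 9.87 and 58.2 ± 12.5 CPM and did not pass the test (adjusted p = 0.380). An unchanged nuclear match was found for 30.8% of the windows of mt-Co1.

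mt-Nd1, a membrane subunit of complex I near the site where ubiquinone is reduced, had 1683, 1207, 1510.2 and 1481 CPM in control libraries. In the mutant libraries it had 1758, 2441, 2574, 2614 and 1752 CPM. The genotypes did not overlap, and mutant replicates 74 and 79 lay just above the highest control. The log2 fold change was 0.60 ± 0.16 (SE; edgeR, adjusted p = 0.0236), and no window of 100 bases of this gene matched an annotated nuclear transcript exactly.

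mt-Nd4, a subunit of the proton-pumping arm of complex I, had 942, 695, 838 and 956 CPM in control and 1001, 1222, 1241, 1238 and 1152 CPM in mutant libraries. Again no mutant library fell within the control range, although mutant replicate 74 was close to it. The means were 858 ± 121 and 1171 ± 102 CPM, and the log2 fold change was 0.45 ± 0.12 (SE; edgeR, adjusted p = 0.0295). An unchanged nuclear match was found for 60.8% of the windows of mt-Nd4. Gm28439, the copy of its first part, had 7.97 ± 0.61 and 7.93 ± 2.14 CPM (SD; edgeR, adjusted p = 0.983). Genotypes that do not overlap were found for mt-Co1, mt-Nd1 and mt-Nd4, 3 of the 13 genes, all with the mutant higher. The same was found for 15.2% of all genes tested, 7.5% with the mutant higher.

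mt-Nd2, another subunit of the pumping arm, had 609, 437, 513 and 558 CPM in control and 609, 685, 808, 814 and 622 CPM in mutant libraries. Mutant replicate 74 and control replicate 71 met at the same level, and the other mutant libraries were above all controls. The log2 fold change of 0.42 ± 0.13 (SE) had an adjusted p of 0.0520 with edgeR, and the adjusted p was 0.0269 with DESeq2.

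mt-Nd5, the third pumping subunit, had 874, 752, 849 and 1032 CPM in control and 788, 1165, 1190.2, 1205 and 999 CPM in mutant libraries. Mutant replicate 74 lay below 3 of 4 controls, so the ranges overlapped. The log2 fold change was 0.29, with a 95% interval from -0.02 to 0.60 (edgeR, adjusted p = 0.194).

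mt-Nd6, the complex I gene on the other strand, had 80.5 to 120.4 CPM in control and 102 to 132 CPM in mutant libraries. The fitted log2 difference of 0.25 had an interval from -0.04 to 0.54 (edgeR, adjusted p = 0.230). There were 11.4 ± 1.04 reads on mt-Nd6 for every 100 on mt-Nd5 in control and 11.3 ± 1.18 in mutant libraries, so the ratio between these neighbours differed by less than the spread between libraries. Reads counted on mt-Nd6 can include RNA of the opposite strand, as the libraries were not stranded.

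mt-Cytb encodes cytochrome b, the only complex III subunit made from mtDNA and thus a partner of the deleted subunit. Control libraries had 5089.5, 3349.6, 4338 and 4069 CPM, and mutant libraries had 4091, 5355, 5344, 4945 and 3789.8 CPM. The ranges overlapped, with control replicate 71 above 3 of 5 mutant libraries. The mean was 4211 ± 719 in control and 4705 ± 725 CPM in mutant cells, and the log2 fold change of 0.16 had an interval from -0.16 to 0.48 (edgeR, adjusted p = 0.506).

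**Figure D4:**
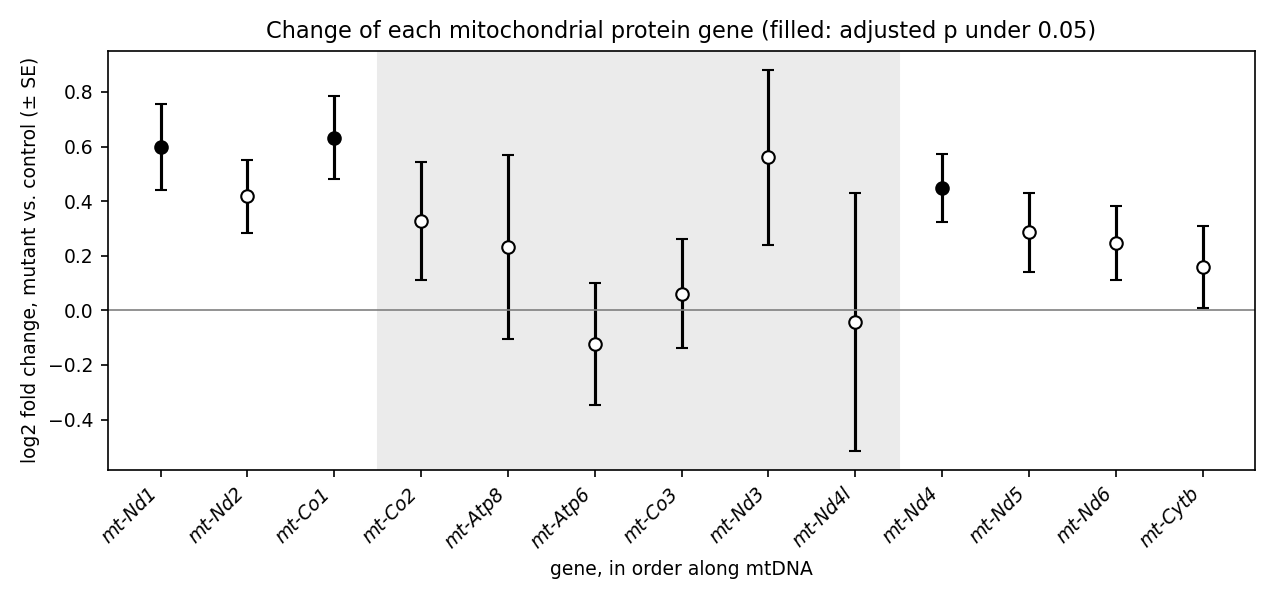
Log2 fold change of each mt protein gene, mutant vs. control, with its SE, in order along mtDNA; filled points passed the test and the 6 genes of the copied block lie on a grey ground. Outside the block all 7 values are above 0, from 0.63 for mt-Co1 to 0.16 for mt-Cytb. Inside it the SEs are wider and no gene passed, while 14.8% of all genes tested did.

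Among the 6 genes of the copied block none passed the edgeR test, with adjusted p between 0.253 and 0.962 and log2 fold changes from -0.12 to 0.56. None had an unadjusted p under 0.05, and none passed with DESeq2. Over all genes tested 14.8% passed with edgeR and 31.4% had an unadjusted p under 0.05. mt-Co2, the complex IV subunit that receives electrons from cytochrome c, had 50.6, 31.7, 41.7 and 39.9 CPM in control and 55.9, 62.8, 67.4, 39.3 and 31.6 CPM in mutant libraries. Mutant replicates 74, 75 and 77 were above all controls, whereas mutant replicates 78 and 79 were below the control mean of 41.0 CPM. The same 2 libraries were low for mt-Co3 (99.4 and 80.6 CPM) and mt-Atp6 (28.1 and 20.6 CPM). The other 3 mutant libraries had 131 to 165 CPM for mt-Co3 and 37.5 to 46.3 CPM for mt-Atp6. The control ranges were 91.5 to 149 CPM for mt-Co3 and 29.3 to 47.9 CPM for mt-Atp6. For both genes the copies on chromosome 1 showed the same low libraries, with 109 and 83.6 CPM on Gm28437 and 45.5 and 43.5 CPM on Gm10925.

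mt-Atp8, mt-Nd3 and mt-Nd4l rested on few reads, 23 to 37, 32 to 85 and 6 to 14 per library. Their log2 fold changes were 0.23 ± 0.34, 0.56 ± 0.32 and -0.04 ± 0.47 (SE), and counting error adds to the spread between libraries at this depth. Gm28438, the copy of mt-Nd3 with 318 to 632 reads per library, was higher in mutant cells (15.7 ± 2.56 vs. 24.1 ± 5.25 CPM; log2 fold change 0.61 ± 0.19, SE; edgeR, adjusted p = 0.0467). It was the only one of the 10 copies that passed, compared with 14.8% of all genes tested. With the reads of each copy added to its mt gene, mt-Nd3 also passed (0.61 ± 0.19; edgeR, adjusted p = 0.0469), and mt-Nd1, mt-Co1 and mt-Nd4 passed as before. Most reads of the merged mt-Nd3 came from Gm28438 (4093 vs. 498 on mt-Nd3 over all libraries), so its call largely repeats that of the copy.

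Together the 13 genes took 1.48%, 1.11%, 1.31% and 1.28% of the counts in control libraries and 1.44%, 1.78%, 1.78%, 1.70% and 1.43% in mutant libraries. Control replicate 71 lay above mutant replicates 74 and 79, so the ranges overlapped. The mean share was 1.29 ± 0.15% and 1.63 ± 0.18%, a difference of 0.33 points, which is larger than either SD. A share of counts is relative, so more mt RNA and less nuclear RNA per cell cannot be told apart, nor can a change in the cells from a change in which cells were sorted.

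The make-up of the mt reads separated the genotypes more clearly than their sum. mt-Co1 took 34.9%, 34.6%, 33.2% and 33.8% of the reads on the 13 genes in control libraries and 38.5%, 40.4%, 39.5%, 38.7% and 39.4% in mutant libraries. mt-Cytb took 34.6%, 32.8%, 34.7% and 32.0% in control and 29.3%, 28.4%, 27.9%, 27.3% and 26.8% in mutant libraries. Neither gene overlapped between genotypes, and the mean difference was 5.18 points for mt-Co1 and -5.61 points for mt-Cytb, compared with SDs of 0.76 to 1.34 points. These shares add up to 100%, so that a higher share of some genes lowers the share of others. The lower share of mt-Cytb stood beside a level in CPM that did not fall.

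**Figure D5:**
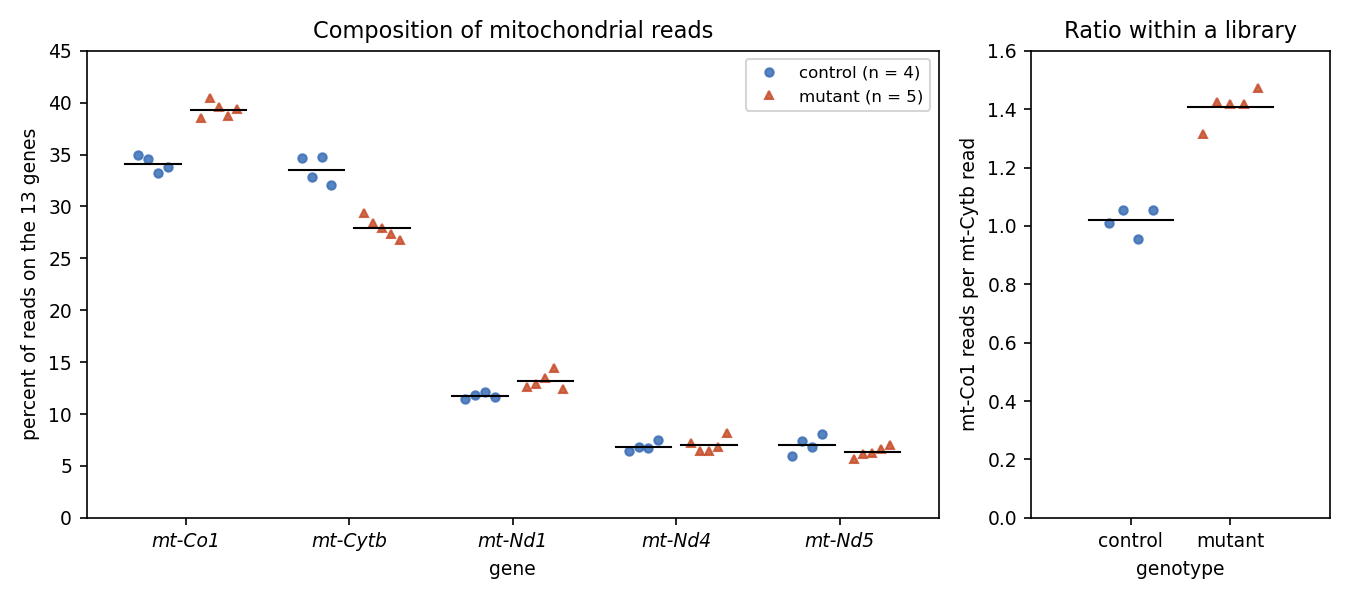
Left, percentage of the reads on the 13 mt genes that fell on each of 5 genes, and right, mt-Co1 reads per mt-Cytb read, 1 point per library with control libraries as circles, mutant libraries as triangles and a line at each mean. mt-Co1 is at 33.2% to 34.9% in control and 38.5% to 40.4% in mutant libraries, mt-Cytb is at 32.0% to 34.7% and 26.8% to 29.3%, and mt-Nd5 overlaps.

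Ratios between genes of 1 library do not depend on its normalization. mt-Co1 had 1.01, 1.05, 0.956 and 1.05 reads for each mt-Cytb read in control libraries and 1.31, 1.42, 1.42, 1.42 and 1.47 in mutant libraries. mt-Nd1 had 0.331 to 0.364 reads per mt-Cytb read in control and 0.430 to 0.529 in mutant libraries, and neither of these genes has a window of 100 bases that matches a nuclear transcript exactly. mt-Co1 and mt-Nd1 kept to each other, with 2.75 to 3.05 mt-Co1 reads per mt-Nd1 read in control and 2.68 to 3.18 in mutant libraries. For mt-Nd4 and mt-Nd5 against mt-Cytb the genotypes overlapped, at 0.185 to 0.235 vs. 0.228 to 0.304 and at 0.172 to 0.254 vs. 0.193 to 0.264. The ratios separated the genotypes for mt-Co1 and mt-Nd1, and did not for mt-Nd4 and mt-Nd5. These ratios were not fixed in advance. Outside the copied block mt-Co1 and mt-Nd1 had the largest log2 fold changes (0.63 and 0.60) and mt-Cytb the smallest (0.16). The ratios to mt-Cytb thus restate those changes and are no separate evidence.

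Against mt-Co1 the genotypes separated for mt-Co3 and mt-Atp6, whose ratios were lower in the mutant, and not for mt-Co2. mt-Co1 itself was higher in the mutant. In CPM neither mt-Co3 (log2 fold change 0.06; edgeR, adjusted p = 0.867) nor mt-Atp6 (-0.12; adjusted p = 0.748) passed the test. For every 100 mt-Co1 reads there were 2.59 to 2.96 on mt-Co3 in control and 1.42 to 2.43 in mutant libraries. mt-Atp6 had 0.830 to 0.963 and 0.369 to 0.698 reads on the same scale. Neither gene overlapped, and mutant replicates 78 and 79 were lowest for both. mt-Co2 overlapped, at 0.898 to 1.005 vs. 0.560 to 1.04. As given above, reads on these genes and on their copies cannot be told apart.

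The nuclear genes that make, process and use these transcripts were described from fixed lists. Of 16 genes of mtDNA transcription and replication 13 were in the table and tested, 0 were higher and 1 lower (7.69%, compared with 14.8% of all genes in either direction), and their median log2 fold change was -0.13. The gene that fell was Mgme1, a nuclease that trims mtDNA ends (47.2 ± 3.72 vs. 33.6 ± 4.63 CPM; log2 fold change -0.49 ± 0.13, SE; edgeR, adjusted p = 0.0252). It no longer passed without control replicate 72, 73 or 76 or mutant replicate 77 or 78, each of which left 0 calls in the list. Polrmt, the mt RNA polymerase, had 29.0 ± 9.93 and 21.6 ± 9.32 CPM (adjusted p = 0.349). Tfam, which packages mtDNA and starts transcription, had 100.1 ± 9.55 and 108 ± 7.10 CPM (adjusted p = 0.541). Tfb2m, the other initiation factor, had 35.8 ± 4.31 and 46.7 ± 4.76 CPM (adjusted p = 0.0638). Neither polymerase nor initiation factors passed the edgeR test.

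Among 19 genes of mt RNA processing, polyadenylation and turnover 1 was higher and 1 lower (10.5%, compared with 14.8% of all genes), with a median of 0.17, and 0 passed without control replicate 73. Trmt10c, a subunit of mt RNase P, which cuts the 5′ ends of tRNAs, was higher (74.2 ± 12.3 vs. 138 ± 43.5 CPM; log2 fold change 0.89 ± 0.22, SE; edgeR, adjusted p = 0.0181), although its genotypes overlapped. Fastk, of a family of mt RNA-binding proteins, was lower without overlap (101 ± 6.12 vs. 74.2 ± 6.82 CPM; log2 fold change -0.45 ± 0.11, SE; edgeR, adjusted p = 0.0161). Lrpprc, which stabilizes most mt mRNAs, had 86.3 ± 13.6 and 108 ± 16.3 CPM (adjusted p = 0.132), and Mtpap, the mt poly(A) polymerase, had a log2 fold change of 0.32 ± 0.16 (adjusted p = 0.192). The 15 genes of mt rRNA and tRNA modification had 0 calls with edgeR, 3 at an unadjusted p under 0.05 and 1 with DESeq2. Of 6 regulators of mt biogenesis Pprc1 was higher (log2 fold change 0.87 ± 0.22, SE; adjusted p = 0.0219) and Ppargc1b lower (-0.86 ± 0.23; adjusted p = 0.0253), both with overlap and both of the PGC-1 family of coactivators. Ppargc1a of the same family had a value of 0.21 ± 0.32 (adjusted p = 0.692). The choice to name Trmt10c, Pprc1 and Ppargc1b was made after their values had been seen.

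The nuclear subunits of the same complexes are given beside the mt genes. Among all genes tested 14.8% passed and 31.4% had an unadjusted p under 0.05. Of 36 nuclear complex I subunits tested 0 passed with edgeR, 1 had an unadjusted p under 0.05, and the median log2 fold change was -0.03, whereas 2 of 7 mt complex I genes were higher. Of 11 nuclear complex IV subunits and of 17 nuclear ATP synthase subunits 0 passed, with 0 at an unadjusted p under 0.05 and medians of 0.04 and -0.03. DESeq2 gave 0 for these 3 lists too. Uqcrq was the only 1 of 9 nuclear complex III subunits that passed, and 3 of 9, Uqcrq included, had an unadjusted p under 0.05. In complex II 0 of 4 subunits, all of nuclear origin, passed by edgeR, DESeq2 or unadjusted p. The difference between mt and nuclear subunits was not tested.

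Of the markers of other cells, only those of stroma had sums that did not overlap between genotypes, and 14.8% of all genes passed the test. The 7 stroma markers summed to 61.2 to 134 CPM in control and 164 to 398 CPM in mutant libraries. Of 6 tested 3 were higher, while Pdgfrb was fitted lower (log2 fold change -0.51) and did not pass. Macrophage markers summed to 2.26 to 8.65 and 7.97 to 92.8 CPM. Of 5 tested 1 passed as higher, with fitted log2 fold changes from 1.93 (Cd68) to 3.90 (C1qb). Endothelium markers summed to 2.41 to 5.10 and 3.49 to 6.63 CPM, with 1 of 3 higher. The macrophage and endothelium sums overlapped between genotypes. Ureteric epithelium markers summed to 44.9 to 63.3 and 27.3 to 48.5 CPM, and 0 of 3 tested passed. Erythroid, proximal tubule and podocyte markers had 0 calls. No marker was at 0 in every library, and the part of other cells in the levels of mt transcripts was not tested.

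The calls for the mt genes depended on single libraries. Without control replicate 73, 0 of the 13 genes passed the edgeR test and 4 had an unadjusted p under 0.05, although the log2 fold changes of mt-Co1, mt-Nd1 and mt-Nd4 were then 0.62, 0.61 and 0.44. Calls over all genes fell as well, from 2225 of 14990 tested in the main fit to 1046 of 15267 in that fit. mt-Co1 passed in the other 8 of 9 fits that left out 1 library, mt-Nd1 in 5 and mt-Nd4 in 4.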

How the data were processed

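RNA-seq was performed on sorted SIX2 progenitors, with 1 library for each of 4 control and 5 mutant samples. The submitters' processing notes name STAR, DESeq2 and mm10. The counting tool, its treatment of reads that match several places, and the annotation are not given in the sources used here. The authors deposited read counts per gene, which were used here. They also deposited FPKM values, a mean normalized signal per genotype, and a log2 fold change with p-values of their own comparison. None of these columns was used.

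Counts were analyzed in R 4.3.3 with edgeR 4.0.16 (filterByExpr, TMM normalization, robust quasi-likelihood test), with Benjamini-Hochberg adjustment over 14990 genes and a threshold of 0.05. Standard errors were derived from the fold change and the F statistic. Scripts were tested on simulated data. Depth was 21040536 to 23986458 counts per library, so the spread between libraries limits precision except for genes with few reads, where counting error adds to it. Library differences exceeded sampling noise in all 16 pairs of replicates, so none was merged. The labels do not say that samples came from separate animals or litters, so p-values measure the spread between these samples only. No batch is labelled.

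Mt genes were matched by symbol and position. Positions equal those of GENCODE M21 for 13 of 13 genes, while 12 of 13 identifiers differ. Nuclear copies were found with blastn 2.17.0. The candidate names fixed for them missed 6 rows that the table lists under clone names, and these were matched by position. Sequences are from GENCODE M21 transcripts.

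The members and lists were chosen with earlier results of these data known. The genes named are the 13 mt genes, Uqcrq, copies with at least 10 counts in every library, and up to 5 genes of each nuclear list with the largest change among those past the threshold without overlap. The others named in the lists were chosen for their role or after their values were seen.

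Alternatives were DESeq2 1.42.0, limma-voom with quality weights (limma 3.58.1), other normalizations and filters, omission of each library in turn, 1 surrogate variable (sva 3.50.0), copies added to their genes, nuclear counts as the denominator of shares, and unadjusted p-values. Figures were drawn with Python 3.11.15 and matplotlib 3.10.9.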

Additional observations from a re-analysis of the deposited data

Results flagged for a closer look

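A single library stood apart from the others of its genotype for 3 of 100 sets of values examined, and chance gives about 1 in 20. For mt-Atp8 control replicate 71 had 1.58 CPM and the other controls 1.01 to 1.096 CPM. For mt-Nd3 mutant replicate 79 had 1.45 CPM and the other mutant libraries 3.001 to 3.62 CPM. For Gm10222, the copy of mt-Nd4l, control replicate 73 had 2.07 CPM and the other controls 1.14 to 1.25 CPM. All of these rest on fewer than 100 reads per library.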

How the results depend on the processing

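RLE or upper-quartile normalization, normalization without mt genes and copies, and both filters gave the same 3 mt genes. DESeq2 and 1 surrogate variable added mt-Nd2, and limma-voom with quality weights gave 6 genes (with mt-Nd2, mt-Nd5 and mt-Nd6) and 4858 genes in all. Leaving out 1 library gave 0 to 5 mt genes and 1046 to 3136 genes in all; 5 mt genes passed without mutant replicate 74 (with mt-Nd2 and mt-Nd5), 1 without control replicate 72, mutant replicate 77 or mutant replicate 78, and 0 without control replicate 73. mt-Co1 then had an adjusted p of 0.0573. mt-Nd1 was lost without control replicates 72 and 73 and mutant replicates 77 and 78 (adjusted p 0.0555 to 0.0686), and mt-Nd4 without those and mutant replicate 75 (0.0590 to 0.0919). Signs turned only for genes that did not pass: mt-Atp6 (0.022 without mutant replicate 79; range -0.237 to 0.022), mt-Co3 (-0.088 with 1 surrogate variable; -0.061 to 0.185 with a library left out), mt-Nd4l (0.031 with copies added; -0.264 to 0.104) and mt-Cytb (-0.0039 with 1 surrogate variable). For mtDNA transcription and replication DESeq2 gave 2 and voom 3 (0 to 2 with a library left out; 0 without control replicates 72, 73 or 76 or mutant replicates 77 or 78). For RNA processing voom gave 5 (0 to 3; 1 without control replicate 72 and 0 without 73), and for rRNA and tRNA modification DESeq2 gave 1 and voom 4 (0 to 1; 1 without mutant replicate 74 or 79). For regulators of biogenesis 1 surrogate variable gave 1 (0 to 3; 0 without control replicate 71). Complex I gave 3 with voom and 2 with 1 surrogate variable, complex III 3 with 1 surrogate variable, complex IV 1 with voom, and ATP synthase 1 with voom and 2 with 1 surrogate variable. The cause of these shifts was not tested. The share of counts on mt genes differed by 0.27 to 0.39 points under its alternatives. The median of all genes stayed between -0.04 and 0.06. No paired analysis was possible because the replicate numbers are not shared between genotypes. mt-Nd4l (6 to 14 reads) is limited by depth, and the genes with near-identical copies by mapping. The unadjusted threshold gave 4 mt genes.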
